A study of Homo sapiens with 6 samples.

Results

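The genes described here encode the enzymes and carriers that take glucose to pyruvate and lactate, pass pyruvate to the pyruvate dehydrogenase complex, and feed the pentose phosphate pathway. The list held 40 genes of these pathways, and 37 of them had a probeset annotated to that gene alone, out of 18404 genes tested in all. SLC16A1 and SLC16A3, which carry lactate across the plasma membrane, and the mutase gene PGAM1 had no such probeset and are not analysed here at the level of the gene. The cells were PC-3, an established human line from a prostate carcinoma that grows without androgen. The menthol group held 3 arrays, from cells given menthol, the cooling compound of mint, in ethanol at a working concentration of 0.1%. The vehicle group held 3 arrays from cells given the same concentration of ethanol alone, and all cells grew in DMEM with 10% fetal bovine serum. The question was how menthol affects the expression profile of this line. The sources used here give neither the dose of menthol nor the time of treatment. No label says that the 3 arrays of a group came from separate cultures. The p-values therefore cover the spread between these arrays and no more, and that spread may be technical.

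Glycolysis turns a molecule of glucose into pyruvate in the cytosol, and lactate dehydrogenase then reduces pyruvate to lactate and regenerates the cofactor that the pathway needs. Pyruvate that enters the mitochondrion meets the pyruvate dehydrogenase complex, which the pyruvate dehydrogenase kinases switch off. The pentose phosphate pathway branches off after the first step and yields NADPH and ribose phosphate. Many of these genes are known targets of the hypoxia-inducible factors and of MYC, and many tumour cells run glycolysis at a high rate in the presence of oxygen.

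Each array, an Affymetrix whole-transcript design, took 300 ng of total RNA. The deposited intensities lay between 1.57 and 14835 in 32321 probesets, and the array medians between 47.4 and 49.1 units. Precision is limited by the number of arrays. Replicates of a gene had a median SD of 0.10 log2 units with menthol and 0.08 with vehicle. No pair of arrays held identical values. The line was checked against its markers. All 6 epithelial markers tested (KRT8, KRT18, KRT19, EPCAM, CDH1 and CLDN7) lay among the brightest 4601 genes and all 6 were higher with menthol, with a summed intensity of 11020 to 11377 in the menthol arrays and 6478 to 6841 in the vehicle arrays. The androgen-regulated genes KLK3 and KLK2 lay at the 32.2nd and 33.6th percentile of intensity. The blood cell markers PTPRC, CD3E, CD14 and HBB lay between the 2.96th and the 29.1st percentile, and these 4 did not pass the threshold used below. The endothelial markers lay between the 19.1st and the 46.6th percentile with 2 of 4 higher, and the fibroblast markers between the 0.717th and the 70.7th with 2 of 5 higher. The part of these markers in the results was not tested. In bulk samples, a change in the make-up of the cells and a change in RNA per cell cannot be told apart.

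Menthol-treated cells had lower signals for most of these genes. Of the 37 genes measured, 23 fell, 3 rose and 11 did not pass the threshold (limma on log2 intensity, Benjamini-Hochberg adjusted p under 0.05 over all 18404 genes). Over all genes 14.5% were called lower and 14.6% higher. The decrease reached 1.5-fold in 6 genes, the regulators PFKFB3 and PFKFB4, the isoenzyme genes ENO2 and ALDOC, the pyruvate dehydrogenase kinase PDK3 and the isomerase TPI1, where 2.62% of all genes were called lower by that much. The gluconeogenic gene FBP1 rose by more than 1.5-fold, against 2.99% of all genes called higher by that much, and PFKFB2 and PGD rose by less. The median log2 fold change of the 37 genes was -0.27, beside 0.03 over all genes. The arrays of the groups did not overlap in 25 genes that were lower and 5 that were higher with menthol, and the same held for 21.7% and 23.5% of all genes.

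Bright genes tended to be lower with menthol on these arrays, and most glucose metabolism genes are bright. With all genes divided by mean intensity into 4 bins of 4601, 29 of the 37 lay in the brightest bin, 3 in the next, 2 in the one after it and 3 in the dimmest. In the brightest bin 20 of the 29 fell and 3 rose, where 26.9% of all genes of that bin fell and 17.2% rose. The median log2 fold change of these 29 genes was -0.31, beside -0.05 for all genes of the bin. The genes in the dimmest bin, the glucose transporter SLC2A3, the hexokinase HK3 and PFKFB1, did not pass, and in that bin 1.91% of all genes fell and 10.3% rose. The part of intensity in the decreases was not tested. The list was chosen with earlier results of these arrays known, so its counts are a description.

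**Figure D1:**
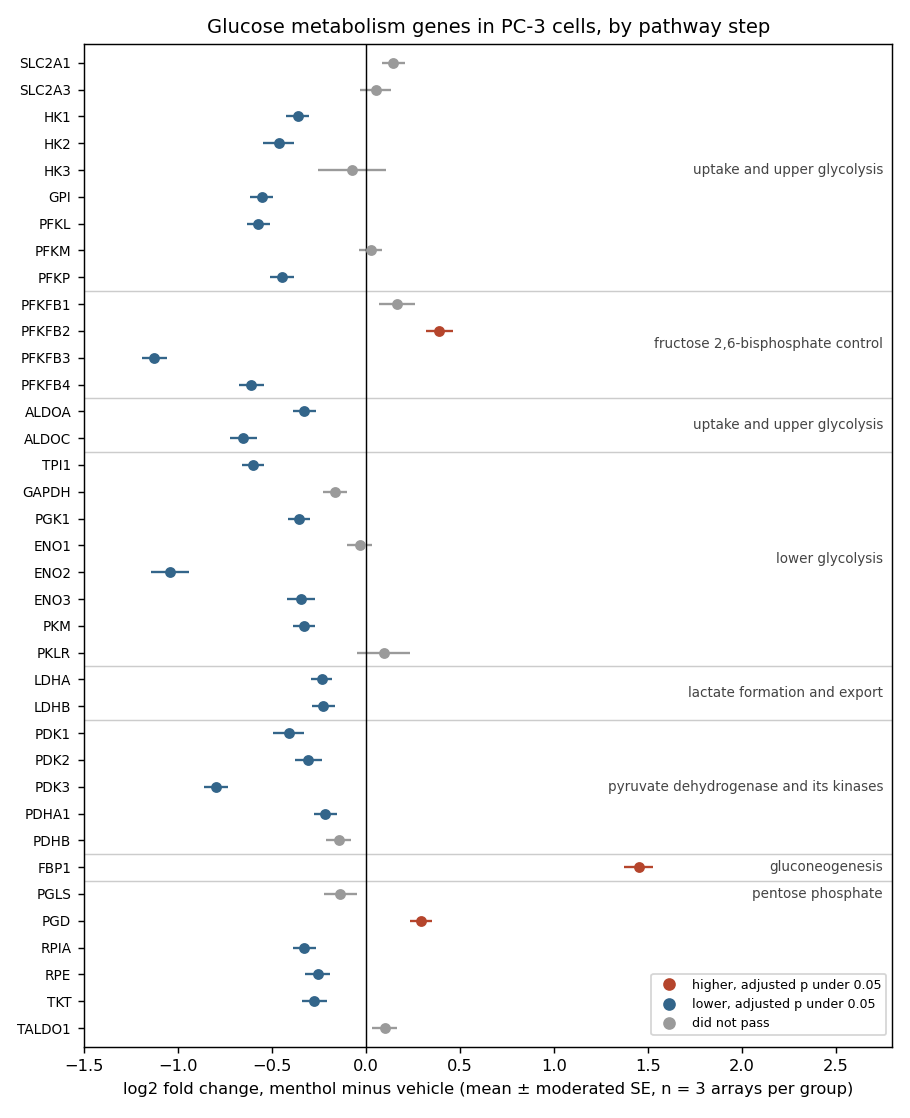
Log2 fold change (menthol minus vehicle, x axis) of the 37 measured genes in pathway order from glucose uptake to the pentose phosphate pathway (y axis); points are means and bars the moderated SE, n = 3 arrays per group. Blue genes were lower, red genes higher, and grey genes did not pass; PFKFB3 at -1.13 and ENO2 at -1.04 lie farthest left and FBP1 at 1.45 farthest right.

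**Figure D2:**
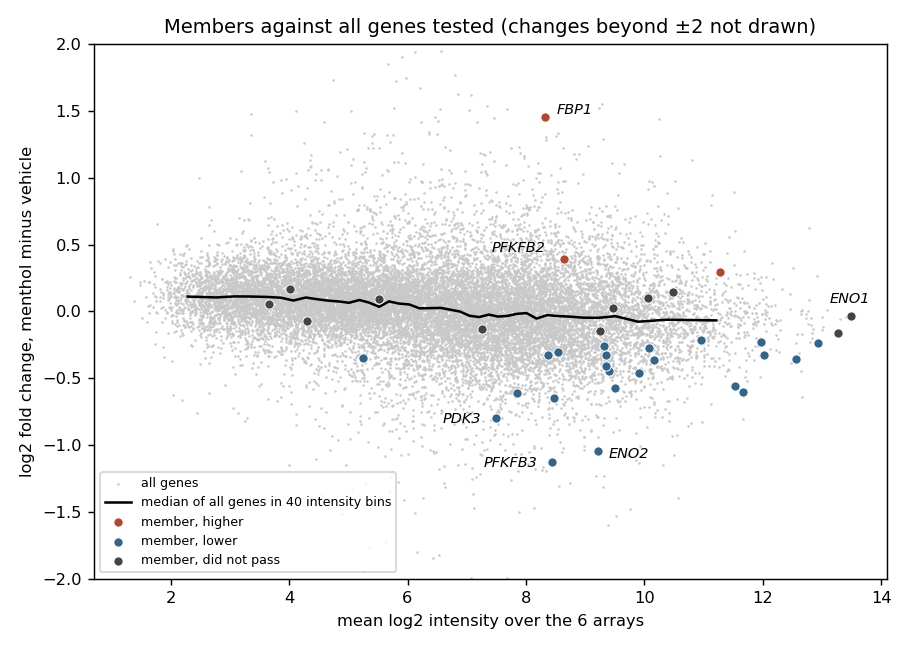
Log2 fold change (menthol minus vehicle, y axis) against mean log2 intensity over the 6 arrays (x axis) for all 18404 genes in grey, with changes beyond the axis not drawn, and the 37 members as larger points coloured by call. The black line is the median of all genes in 40 bins of intensity. Most members lie below it on the right of the plot, and PFKFB2, PGD and FBP1 are among those above it.

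The entry of glucose was measured through its carriers and the hexokinases, which trap glucose as glucose 6-phosphate. SLC2A1, the basal glucose transporter of most cells, had a log2 intensity of 10.49, 10.58 and 10.58 in the menthol arrays, against 10.43, 10.41 and 10.37 in the vehicle arrays. Its arrays did not overlap, but the log2 fold change of 0.15 ± 0.06 (SE, n = 3 per group) did not pass (adjusted p = 0.111). It passed as higher under quantile normalization and cyclic loess normalization, with the filter at the median intensity and with the trended prior, in a range of adjusted p from 0.0188 to 0.251 over the alternatives. SLC2A3, a high-affinity transporter, averaged 3.69 ± 0.13 with menthol and 3.64 ± 0.07 with vehicle (SD, n = 3), at the 11.7th percentile, and did not pass.

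Both hexokinase genes with a high signal fell. HK2, the inducible hexokinase of many tumours, had 9.52, 9.71 and 9.78 in the menthol arrays and 10.21, 10.11 and 10.09 in the vehicle arrays. Every menthol array lay below every vehicle array, with menthol replicate 1 the lowest, and the log2 fold change was -0.46 ± 0.08 (adjusted p = 0.00538). HK1, the housekeeping hexokinase, had 9.90, 10.00 and 10.01 with menthol and 10.36, 10.32 and 10.34 with vehicle, again without overlap, for a change of -0.36 ± 0.06 (adjusted p = 0.00391). HK3, found mainly in blood cells, was dim and did not pass.

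GPI, which converts glucose 6-phosphate to fructose 6-phosphate, fell. Its log2 intensity was 11.23, 11.21 and 11.28 in the menthol arrays and 11.75, 11.82 and 11.82 in the vehicle arrays. The arrays of each group lay close together beside the gap between the groups, and the change was -0.55 ± 0.06 (adjusted p = 0.000595).

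Phosphofructokinase commits the sugar to glycolysis, and 2 of its 3 subunit genes fell. PFKL, the liver-type subunit, had 9.21, 9.19 and 9.23 with menthol and 9.79, 9.72 and 9.84 with vehicle, a change of -0.57 ± 0.06 (adjusted p = 0.000548). PFKP, the platelet-type subunit, averaged 9.18 ± 0.07 with menthol and 9.63 ± 0.02 with vehicle (SD, n = 3), a change of -0.45 ± 0.06 (adjusted p = 0.00179). PFKM, the muscle-type subunit, had 9.43, 9.51 and 9.49 in the menthol arrays and 9.49, 9.39 and 9.47 in the vehicle arrays. The groups overlapped for PFKM, and it was not called (0.02 ± 0.06, adjusted p = 0.796).

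The PFKFB enzymes make and remove fructose 2,6-bisphosphate, the strongest activator of phosphofructokinase, and their genes moved in opposite directions. PFKFB3, whose enzyme has a high kinase activity and so favours glycolysis, had the largest decrease among the 37 genes. Its log2 intensity was 7.81, 7.95 and 7.86 in the menthol arrays and 8.97, 9.06 and 8.98 in the vehicle arrays. No array of either group came near the other group, and the change of -1.13 ± 0.07, 2.18-fold lower with menthol (adjusted p = 5.26e-05), ranked 64th from the lowest among all 18404 genes. PFKFB4 fell by 0.61 on the log2 scale, with 7.46, 7.61 and 7.56 in the menthol arrays and 8.19, 8.17 and 8.10 in the vehicle arrays (SE 0.07, adjusted p = 0.000595). PFKFB2, the heart-type isoenzyme, rose, with 8.73, 8.87 and 8.91 in the menthol arrays and 8.42, 8.42 and 8.51 in the vehicle arrays. The change was 0.39 ± 0.07 (adjusted p = 0.00562) and the arrays did not overlap. PFKFB1, the liver and muscle isoenzyme gene, was at the 15.7th percentile and did not pass (0.17 ± 0.10, adjusted p = 0.242).

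**Figure D3:**
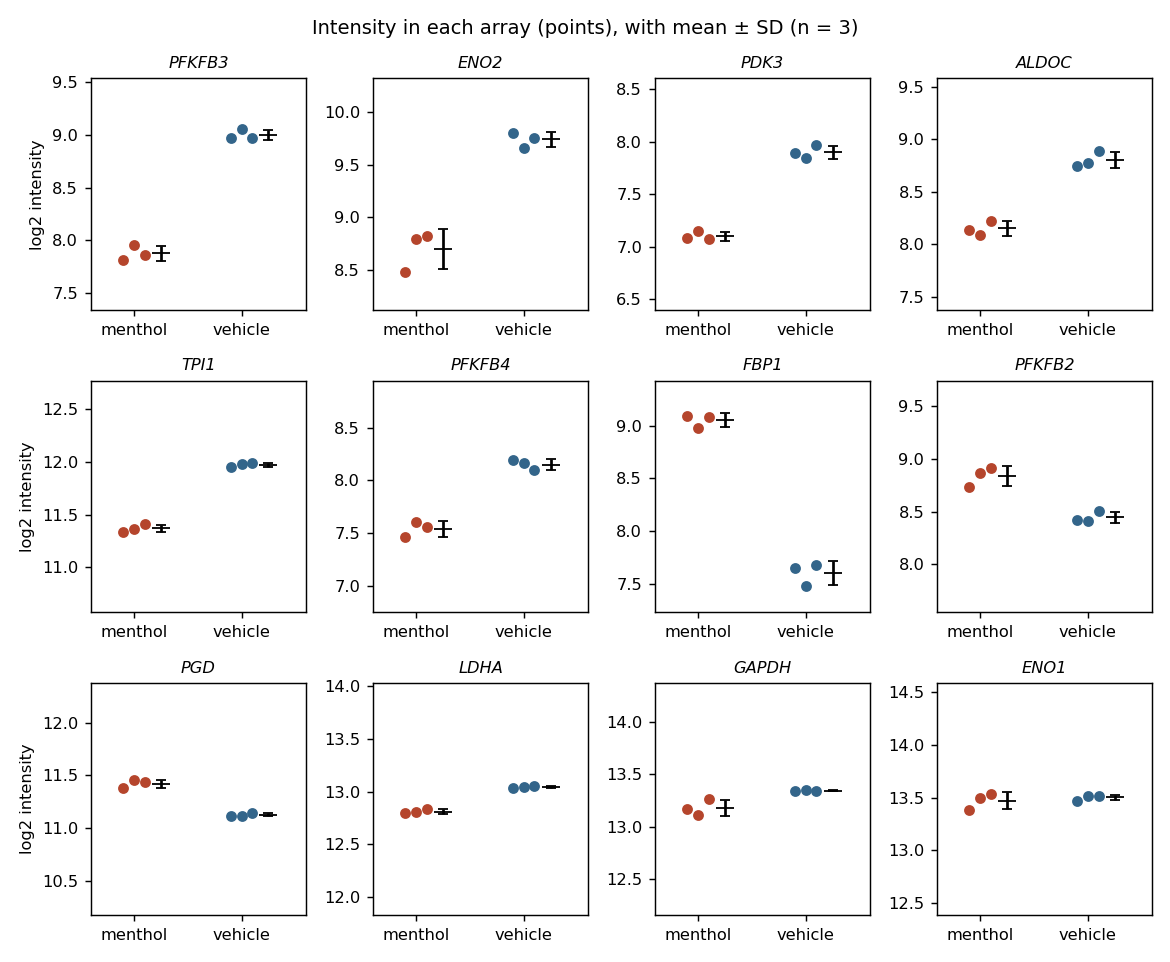
Log2 intensity (y axis) in each array for 12 genes, with the menthol arrays in red on the left and the vehicle arrays in blue on the right of each panel; black marks are the mean ± SD (n = 3), and every panel spans the same range of log2 units. The groups are apart in PFKFB3, ENO2, PDK3, ALDOC, TPI1 and PFKFB4, with menthol below vehicle, and in FBP1, PFKFB2 and PGD, with menthol above; the arrays of ENO1 overlap.

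Aldolase splits fructose 1,6-bisphosphate into a pair of triose phosphates, and both measured aldolase genes fell. ALDOC, the brain-type aldolase, had 8.14, 8.09 and 8.23 in the menthol arrays and 8.74, 8.78 and 8.89 in the vehicle arrays, a change of -0.65 ± 0.07 (adjusted p = 0.000562). ALDOA, the muscle-type aldolase found in most cells, averaged 9.19 ± 0.06 with menthol and 9.52 ± 0.02 with vehicle (SD, n = 3), a change of -0.33 ± 0.06 (adjusted p = 0.00591). TPI1, which interconverts the triose phosphates, had 11.34, 11.37 and 11.41 with menthol and 11.95, 11.98 and 11.99 with vehicle. The change was -0.60 ± 0.06 (adjusted p = 0.000347). TPI1 was the only gene of the 37 with more than 1 probeset, and its dimmer probeset had a mean of 5.74 with menthol and 6.07 with vehicle, a difference of -0.33 in the same direction that did not pass when it stood for the gene (adjusted p = 0.173).

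Of the next enzymes of the pathway, PGK1 and PKM fell and GAPDH did not pass. GAPDH, which oxidises glyceraldehyde 3-phosphate and often serves as a reference gene, had 13.17, 13.12 and 13.26 in the menthol arrays and 13.34, 13.35 and 13.35 in the vehicle arrays. The groups did not overlap, but the change of -0.16 ± 0.06 did not pass (adjusted p = 0.0929). PGK1, which makes the first ATP of the pathway, averaged 12.38 ± 0.0041 with menthol and 12.74 ± 0.05 with vehicle (SD, n = 3), a change of -0.35 ± 0.06 (adjusted p = 0.00384). PKM, the pyruvate kinase gene of most tissues, averaged 11.85 ± 0.02 with menthol and 12.18 ± 0.04 with vehicle, a change of -0.33 ± 0.06 (adjusted p = 0.00526). PKLR, the pyruvate kinase gene of liver and red cells, had a low signal, at the 36.1st percentile, and was not called (0.09 ± 0.14, adjusted p = 0.657).

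Of the 3 enolase genes, ENO2 and ENO3 fell. ENO2, the neuronal enolase and a known hypoxia target, had 8.48, 8.80 and 8.82 in the menthol arrays and 9.81, 9.66 and 9.75 in the vehicle arrays. All menthol arrays lay below the vehicle arrays, menthol replicate 1 farthest, and the change was -1.04 ± 0.10, 2.06-fold lower (adjusted p = 0.000348). ENO1, the enolase of most tissues, ranked first in intensity of all genes in every array, with 13.38, 13.50 and 13.53 in the menthol arrays and 13.47, 13.52 and 13.52 in the vehicle arrays. These overlapped, and ENO1 did not pass (-0.03 ± 0.07, adjusted p = 0.739). The deposited values come from a method that quantile-normalizes the arrays. That step can narrow differences among the brightest genes, and its part in ENO1 was not tested. ENO3, the muscle enolase, had a low signal, at the 32.2nd percentile. It fell, with 5.08 ± 0.08 with menthol and 5.43 ± 0.09 with vehicle (SD, n = 3), a change of -0.35 ± 0.07 (adjusted p = 0.0107).

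Promoter windows from RefSeq (GRCh38.p14), from 250 bases before to 50 bases after each gene's start, are printed for the genes with the largest changes, PFKFB3, ENO2 and FBP1, for ENO1 as the enolase that did not pass, and for LDHA, which held the most matches among the genes called lower. Capitals mark the letters ACGTG or GCGTG on either strand, the core that hypoxia-inducible factors bind, and overlapping matches run together. Each window is written 5′ to 3′ along the strand of its gene.
PFKFB3 (chr10:6144671-6144970, plus strand): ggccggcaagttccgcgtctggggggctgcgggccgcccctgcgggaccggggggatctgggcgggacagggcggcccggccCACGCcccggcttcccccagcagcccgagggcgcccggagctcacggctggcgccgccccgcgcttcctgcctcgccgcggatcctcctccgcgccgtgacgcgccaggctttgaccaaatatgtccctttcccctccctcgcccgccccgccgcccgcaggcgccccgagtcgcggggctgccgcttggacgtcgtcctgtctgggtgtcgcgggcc
ENO2 (chr12:6914330-6914629, plus strand): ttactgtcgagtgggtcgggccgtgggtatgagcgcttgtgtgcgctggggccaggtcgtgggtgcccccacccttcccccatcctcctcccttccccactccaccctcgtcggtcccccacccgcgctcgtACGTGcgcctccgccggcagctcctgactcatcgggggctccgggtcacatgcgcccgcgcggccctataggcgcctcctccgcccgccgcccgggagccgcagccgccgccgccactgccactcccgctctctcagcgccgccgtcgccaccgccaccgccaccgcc
ENO1 (chr1:8878637-8878936, minus strand): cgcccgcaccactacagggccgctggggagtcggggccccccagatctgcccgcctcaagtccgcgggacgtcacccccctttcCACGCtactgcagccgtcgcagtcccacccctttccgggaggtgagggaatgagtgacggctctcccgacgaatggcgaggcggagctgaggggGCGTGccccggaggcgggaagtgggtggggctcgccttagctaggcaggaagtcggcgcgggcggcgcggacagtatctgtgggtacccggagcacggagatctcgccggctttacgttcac
LDHA (chr11:18394313-18394612, plus strand): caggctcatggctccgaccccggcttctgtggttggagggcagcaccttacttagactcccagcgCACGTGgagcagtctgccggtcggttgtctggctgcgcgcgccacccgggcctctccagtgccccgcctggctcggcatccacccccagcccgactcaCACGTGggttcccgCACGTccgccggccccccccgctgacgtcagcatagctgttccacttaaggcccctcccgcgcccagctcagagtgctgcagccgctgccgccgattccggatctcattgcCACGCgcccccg
FBP1 (chr9:94639469-94639768, minus strand): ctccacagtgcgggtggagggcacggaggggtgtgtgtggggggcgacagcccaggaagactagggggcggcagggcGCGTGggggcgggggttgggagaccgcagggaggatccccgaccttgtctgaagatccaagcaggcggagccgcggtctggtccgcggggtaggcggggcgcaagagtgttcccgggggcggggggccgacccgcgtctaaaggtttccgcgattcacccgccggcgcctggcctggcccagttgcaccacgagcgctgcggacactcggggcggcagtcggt

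Windows were found for 35 of the 37 measured genes, with none for PFKFB2 and SLC2A3. ACGTG was in 12 of the 35 windows (34.3%), against 23% of the windows of 22198 protein-coding genes, and GCGTG in 18 (51.4%), against 43%. Either core was in 23 (65.7%), against 54.7%. Of the genes that fell, 16 of 23 held either core, and of the others 7 of 12. CACGTG, the E-box that MYC binds and that holds ACGTG on both strands, was in 5 of the 35 (14.3%), against 8.34%. It was in 2 of the 23 genes that fell and in 3 of the 12 others. LDHA and PDHB held 6 matches each, although PDHB did not pass the threshold. ALDOC held 5, while PFKFB3, ENO2 and FBP1 held 1 each. The match of ENO2 lay at positions -118 to -114 from the start and that of PFKFB3 at -168 to -164. A match describes the letters of the window and shows no binding. Each window covers a single annotated start of its gene, and whether these cells use that start was not tested.

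Lactate dehydrogenase links pyruvate to lactate, and both of its main genes were slightly lower. LDHA had 12.79, 12.80 and 12.84 in the menthol arrays and 13.04, 13.05 and 13.06 in the vehicle arrays, a change of -0.24 ± 0.06 (adjusted p = 0.0167). LDHB had 11.81, 11.87 and 11.90 with menthol and 12.06, 12.08 and 12.11 with vehicle, a change of -0.23 ± 0.06 (adjusted p = 0.0252). Neither gene overlapped between the groups. The calls are close to the threshold. LDHA did not pass without menthol replicate 2 (adjusted p = 0.0533) or without vehicle replicate 1, 2 or 3 (0.0532, 0.0594 and 0.0541), nor under quantile normalization (0.093) or cyclic loess normalization (0.0626). LDHB did not pass without menthol replicate 1 or 2 (0.0584 and 0.0652), without vehicle replicate 1, 2 or 3 (0.0641, 0.0741 and 0.0793) or under cyclic loess normalization (0.0683).

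PDK1, PDK2 and PDK3, which encode kinases that switch off pyruvate dehydrogenase, all fell. PDK3, a kinase gene on the X chromosome, had 7.08, 7.15 and 7.07 in the menthol arrays and 7.89, 7.84 and 7.96 in the vehicle arrays. The groups lay far apart relative to their spread, with a change of -0.80 ± 0.06 (adjusted p = 0.000171). PDK1, a known hypoxia target, had 8.99, 9.17 and 9.28 with menthol and 9.56, 9.51 and 9.61 with vehicle, a change of -0.41 ± 0.08 (adjusted p = 0.00941). PDK2 averaged 8.39 ± 0.08 with menthol and 8.70 ± 0.07 with vehicle (SD, n = 3), a change of -0.31 ± 0.07 (adjusted p = 0.0156), and did not pass without vehicle replicate 2 or 3 (adjusted p = 0.0597 and 0.0536). PDK4, the remaining kinase gene, belongs to a neighbouring list and is named here after its value was seen. It was at -0.27 ± 0.13 and was not called (adjusted p = 0.167).

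Of the E1 subunits of the enzyme that these kinases act on, PDHA1 fell. PDHA1, which carries the phosphorylated sites, averaged 10.85 ± 0.06 with menthol and 11.07 ± 0.03 with vehicle (SD, n = 3), a change of -0.22 ± 0.06 (adjusted p = 0.0346). It lost the call without menthol replicate 1 or 2 and without vehicle replicate 1, 2 or 3 (adjusted p from 0.0707 to 0.101), and under quantile and cyclic loess normalization (0.0653 and 0.0797). PDHB, the other E1 subunit, did not pass (-0.15 ± 0.06, adjusted p = 0.132), although its arrays did not overlap. It passed as lower with the filter at the median intensity (adjusted p = 0.0499) and with the trended prior (0.0458), in a range of adjusted p from 0.0458 to 0.298 over the alternatives.

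FBP1, which runs against phosphofructokinase by removing a phosphate from fructose 1,6-bisphosphate, had the largest change of the 37 genes, and it rose. Its log2 intensity was 9.09, 8.98 and 9.08 in the menthol arrays and 7.65, 7.47 and 7.68 in the vehicle arrays. The lowest menthol array lay far above the highest vehicle array, and the change was 1.45 ± 0.08, 2.74-fold (adjusted p = 4.05e-05). It ranked 31st from the highest among all genes. In intensity units FBP1 had 547, 504 and 543 with menthol and 201, 178 and 205 with vehicle.

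Of the 6 measured genes of the pentose phosphate pathway 3 fell and 1 rose, where 14.5% of all genes fell and 14.6% rose, and 26.9% and 17.2% of the brightest bin. PGD, which yields NADPH in the oxidative part, rose, with 11.38, 11.45 and 11.43 in the menthol arrays and 11.12, 11.12 and 11.14 in the vehicle arrays. The change was 0.29 ± 0.06 (adjusted p = 0.00745), without overlap. PGLS, the lactonase of the oxidative part, overlapped between groups and did not pass (-0.14 ± 0.09, adjusted p = 0.294).

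In the non-oxidative part, which exchanges sugars with glycolysis, 3 of 4 genes fell. RPIA, which isomerises ribose 5-phosphate, averaged 8.22 ± 0.03 with menthol and 8.54 ± 0.05 with vehicle (SD, n = 3), a change of -0.33 ± 0.06 (adjusted p = 0.00571). TKT, the transketolase gene, averaged 9.94 ± 0.06 with menthol and 10.22 ± 0.06 with vehicle, a change of -0.27 ± 0.06 (adjusted p = 0.0163). RPE, an epimerase gene, averaged 9.18 ± 0.01 with menthol and 9.44 ± 0.08 with vehicle, a change of -0.26 ± 0.06 (adjusted p = 0.0211). RPE and TKT lost the call without menthol replicate 2 (adjusted p = 0.0631 and 0.0583) or vehicle replicate 3 (0.0688 and 0.0587). TALDO1, the transaldolase gene, had a log2 fold change of 0.10 ± 0.07 and did not pass (adjusted p = 0.298).

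**Figure D4:**
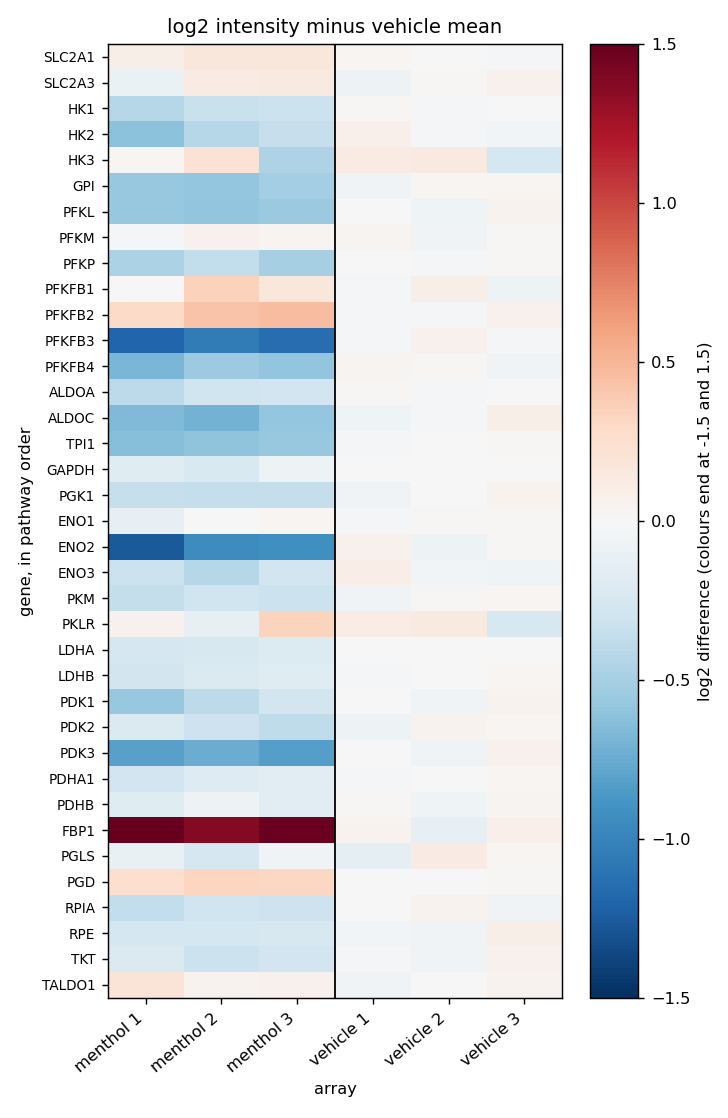
Log2 intensity of each measured gene (rows, in pathway order) in each array (columns, menthol left of vehicle) minus the gene's vehicle mean; blue is lower, red is higher, and the colours end at -1.5 and 1.5. The menthol columns are blue for most rows, deepest for PFKFB3, ENO2 and PDK3, and red for FBP1, PFKFB2 and PGD; the dim genes HK3 and PKLR vary within both groups.

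The ratio of isoenzyme genes within an array asks whether genes of the same step changed unequally. The scale of the array cancels in this ratio, but a shift that depends on intensity does not. Of 12 pairs planned, 11 could be formed, and in 7 the ratios of the menthol arrays and the vehicle arrays did not overlap. With 3 arrays in each group, the smallest p that an exact two-sided permutation test can give is 0.10, so no pair could pass the threshold. These 7 pairs reached that smallest p (0.157 after Benjamini-Hochberg adjustment over the 11 pairs). The log2 ratio of PFKFB3 to PFKFB2 differed between menthol and vehicle by -1.52 ± 0.07 (SE), with the menthol arrays at -1.61 to -1.47 from the vehicle mean and the vehicle arrays within 0.09 of it. The difference was -1.001 ± 0.066 for PFKFB4 over PFKFB2 and -1.01 ± 0.08 for ENO2 over ENO1. It was -0.49 ± 0.08 for PDK3 over PDK2 and -0.32 ± 0.06 for ALDOC over ALDOA. Over PFKL, the difference was 0.60 ± 0.04 for PFKM and 0.12 ± 0.06 for PFKP.

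In the other 4 pairs the arrays overlapped. The ratio of LDHA to LDHB differed between menthol and vehicle by -0.01 ± 0.02 on the log2 scale (exact permutation p = 0.8, n = 3 per group). The values were -0.10 ± 0.05 for HK2 over HK1 (p = 0.2, exact), -0.09 ± 0.07 for SLC2A3 over SLC2A1 (p = 0.3, exact) and -0.11 ± 0.14 for PDK1 over PDK2 (p = 0.7, exact). A p that misses the threshold does not show that the genes of a pair changed alike.

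**Figure D5:**
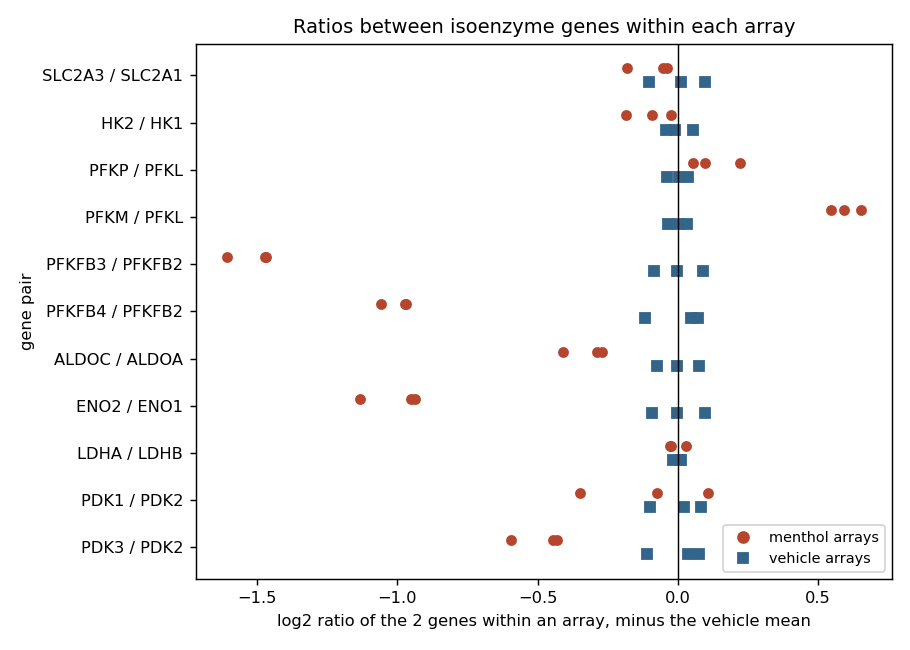
Log2 ratio of 2 genes of the same step within each array, minus the mean ratio of the vehicle arrays (x axis), for 11 gene pairs (y axis); red circles are the 3 menthol arrays and blue squares the 3 vehicle arrays. The ratios of PFKFB3 and PFKFB4 to PFKFB2 and of ENO2 to ENO1 lie about 1 log2 unit or more below the vehicle arrays, and those of LDHA to LDHB lie among them.

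Genes of neighbouring pathways were counted from lists set beside the members, 138 measured genes in all, of which 28 fell and 18 rose. The counts of each list are a description, to be set against the 14.5% of all genes that fell and the 14.6% that rose. The tricarboxylic acid cycle, which burns the acetyl groups that pyruvate dehydrogenase makes, was lower for 10 of 17 measured genes and higher for 1. Of these 17 genes, 0 lay in the 2 dimmer bins of intensity, and in the brightest bin 26.9% of all genes fell and 17.2% rose. DLST and OGDH, subunits of the oxoglutarate dehydrogenase complex, fell by 0.55 and 0.50 on the log2 scale (SE 0.06 each, adjusted p = 0.000505 and 0.00113). IDH1, the cytosolic isocitrate dehydrogenase that yields NADPH, rose by 0.71 ± 0.06 (adjusted p = 0.00029). Without menthol replicate 2 or vehicle replicate 1, 2 or 3, 6 genes of this list fell in place of 10.

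Around pyruvate dehydrogenase, 3 of 8 further genes fell and 1 rose. DLAT, the acetyltransferase core of the complex, changed by -0.41 ± 0.07 (adjusted p = 0.00343) and the carboxylase PC by -0.52 ± 0.07 (adjusted p = 0.00143). PDP1, the phosphatase that switches the complex on again, rose by 0.49 ± 0.07 (adjusted p = 0.00218). Of 9 carriers of lactate and pyruvate and their partners 2 rose and 1 fell, and 5 of the 9 lay in the 2 dimmer bins of intensity. The monocarboxylate carrier SLC16A7 rose by 0.62 ± 0.08 (adjusted p = 0.00144) and the mitochondrial pyruvate carrier subunit MPC2 by 0.52 ± 0.06 (adjusted p = 0.000865). BSG, the chaperone of the lactate carriers, fell by 0.37 on the log2 scale (SE 0.08, adjusted p = 0.00958).

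Among hexose transporters outside the members, 0 of 15 were called lower in limma, where 14.5% of all genes were, and also 0 at an unadjusted p under 0.05, where 19.5% of all genes were. Of these transporters, 11 lay in the 2 dimmer bins of intensity. A share near the 14.6% of all genes, 2 of 15, was called higher, SLC2A10 by 0.79 ± 0.06 (adjusted p = 0.00015) and the dim SLC2A9 by 0.32 ± 0.09 (adjusted p = 0.0304). SLC2A9 did not pass without menthol replicate 1 or 3 or vehicle replicate 1 or 3, or under quantile and cyclic loess normalization (adjusted p from 0.0619 to 0.0942). Without menthol replicate 1 or vehicle replicate 1 or 3, 1 transporter gene rose. Among 20 glycogen genes 7 fell and 3 rose. The glycogen synthase GYS1 fell by 0.72 on the log2 scale (SE 0.06, adjusted p = 0.000229) and the lysosomal glucosidase GAA by 0.42 (SE 0.08, adjusted p = 0.00532), and the dim PPP1R3C, which targets a phosphatase to glycogen, rose by 0.54 ± 0.12 (adjusted p = 0.0112). Without vehicle replicate 1 or 3, 4 glycogen genes fell, and without menthol replicate 2 or 3 or vehicle replicate 1 or 2, 1 rose.

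Of 25 other isoforms and side enzymes of glycolysis and the pentose phosphate pathway 1 fell and 3 rose. Of these 25 genes, 15 lay in the 2 dimmer bins of intensity. In those bins 9% and, in the dimmest, 1.91% of all genes fell. The glucose 6-phosphatase G6PC3 changed by -0.42 ± 0.06 (adjusted p = 0.00194), and MINPP1, an inositol phosphatase that also acts on bisphosphoglycerate, and the ribokinase RBKS rose by 0.55 ± 0.07 and 0.40 ± 0.06 (adjusted p = 0.00107 and 0.00288). Without menthol replicate 1, 2 of these genes fell. Among 10 genes of fructose, mannose and galactose entry 2 fell and 2 rose. MPI, which links mannose to glycolysis, fell by 0.80 on the log2 scale (SE 0.08, adjusted p = 0.000348), TKFC by 0.39 (SE 0.06, adjusted p = 0.00343), and GMPPB rose by 0.26 ± 0.07 (adjusted p = 0.0223). GMPPB did not pass without menthol replicate 2 or vehicle replicate 1, 2 or 3 (adjusted p from 0.0515 to 0.0758), and 0 or 1 genes of this list rose with each array left out in turn.

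Of 8 genes of hexosamine synthesis UAP1 alone passed, rising by 0.66 ± 0.07 (adjusted p = 0.000653), and without menthol replicate 3, 1 gene of the list fell. Of 10 genes of the serine, glycerol and phosphoenolpyruvate branches the aminotransferase PSAT1 fell by 0.33 on the log2 scale (SE 0.06, adjusted p = 0.00531) and GPD2 rose by 0.30 ± 0.08 (adjusted p = 0.0287). GPD2 did not pass without menthol replicate 2 or 3 or vehicle replicate 1, 2 or 3 (adjusted p from 0.0586 to 0.0923).

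Of 16 regulators of these genes 3 fell and 2 rose, close to the 14.5% and 14.6% of all genes. HIF1A, the oxygen-regulated factor of many glycolytic genes, averaged 11.49 ± 0.01 with menthol and 11.65 ± 0.06 with vehicle (SD, n = 3) and did not pass (-0.16 ± 0.06, adjusted p = 0.0807). EPAS1, which encodes its relative HIF-2 alpha, rose by 0.67 ± 0.06 (adjusted p = 0.000326), and HIF1AN, an inhibitor of these factors, fell by 0.80 on the log2 scale (SE 0.06, adjusted p = 0.000124). MYC, which drives many of the same enzymes, fell by 0.68 (SE 0.06, adjusted p = 0.000229). TXNIP, a glucose-responsive gene that restrains glucose uptake, did not pass (-0.08 ± 0.06, adjusted p = 0.356).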

How the data were processed

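The authors deposited 1 table of intensity values, 32321 probesets on 6 arrays. The submitters' processing notes name RMA, which corrects background, quantile-normalizes and summarises the probes of a set. The sources used here name no software. The deposited intensities were linear and were converted to log2. Of the probesets, 19158 had 1 gene symbol in the platform annotation, 1388 had several and 11775 had none here. Where a gene had more than 1 probeset, the brightest was used, which left 18404 genes. In R 4.3.3, limma 3.58.1 (lmFit, eBayes) fitted group alone, and two-sided p-values were Benjamini-Hochberg adjusted across all 18404 genes, with a threshold of 0.05. Log2 folds are menthol minus vehicle, with the moderated standard error (SE). The fit was tested on simulated data. The members, lists, tests and alternatives were chosen with earlier results of these data known. All measured members are named, and of each further list up to 3 genes with the largest change past the threshold, and HIF1A, MYC and TXNIP. No set test was made. The alternatives were 3 normalizations, 2 filters on dim genes, 2 other uses of probesets, a trended robust prior (statmod 1.5.0), array weights, a replicate block, a threshold of 0.01 and the omission of each array. Promoter letters and figures used Python 3.11.15, pandas 2.3.3 and matplotlib 3.10.9.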

Additional observations from a re-analysis of the deposited data

How the results depend on the processing

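Between 16 and 25 genes of the list fell and 3 or 4 rose under all 17 alternatives, and 17 to 23 fell and 3 rose when any 1 array was left out. The lowest count came with a threshold of 0.01, where 7.93% of all genes fell and 7.51% rose. The highest came with the trended prior, where 17.6% fell and 16.1% rose. With each array left out, 10.1% to 13.4% of all genes fell and 10.6% to 13.1% rose. The filters tested 34 and 32 of the 37 genes. With the filter at the median intensity, 31% of the genes kept fell and 23.3% rose. The median log2 fold change of the list was -0.22 under both quantile normalization and cyclic loess normalization, and -0.30 to -0.24 with each array left out. Of the 23 genes that fell, 15 kept the call under every alternative they were tested in; the exceptions were LDHA, LDHB, PDK2, PDHA1, RPE, TKT, TPI1 and ENO3, the last with the threshold of 0.01 alone. FBP1, PFKFB2 and PGD kept theirs. With a threshold of 0.01, 18 of the further pathway genes fell and 10 rose, and with each array left out 21 to 27 fell and 12 to 16 rose. Genes that did not pass changed sign as follows. SLC2A3 was at -0.051 under quantile and -0.046 under cyclic loess normalization, ENO1 at 0.053 under cyclic loess normalization and PKLR at -0.013 with array weights. With 1 array left out, ENO1 ranged from -0.065 to 0.012 (above 0 without menthol replicate 1), HK3 from -0.22 to 0.12 (without menthol replicate 3), PFKM from -0.0036 (without vehicle replicate 2) to 0.049 and PKLR from -0.028 to 0.20 (below 0 without menthol replicate 3 or vehicle replicate 3). The ratio of LDHA to LDHB was at 0.038 under quantile normalization and ranged from -0.026 to 0.0017 (without menthol replicate 3), and that of PDK1 to PDK2 from -0.21 to 0.017 (without menthol replicate 1). The cause of these changes was not tested. ENO1, the brightest gene on every array, has no difference after quantile normalization by construction, so that setting says nothing of its sign. With the replicate number of the titles as a block 22 genes of the list fell and 3 rose, where 13% of all genes fell and 13.5% rose. The calls on PDHA1 (adjusted p = 0.0549) and, among the further genes named, SLC2A9 (0.0617) were lost with the block. Deviations of same-numbered arrays correlated at 0.01, -0.01 and 0.09, and those of differently numbered arrays at -0.072 to 0.072. With 3 arrays in each group, these values cannot settle whether the numbers pair the arrays. GAPDH passed as lower with the filter at the median intensity, the trended prior and array weights, and PDHB with the filter and the trended prior. Signals near the low end of the arrays limit what can be said of SLC2A3, HK3 and PFKFB1.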

Other observations

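The phosphoglycerate mutase step had 4 probesets, all annotated to both PGAM1 and PGAM4, so their signals cannot be given to either gene and were left out of the fit. All 4 were lower with menthol, by 0.96 to 1.43 on the log2 scale as differences of group means: the differences were -1.43, -1.30, -1.08 and -0.96. The probeset with the largest difference lay between 8.38 and 8.76 in the menthol arrays and between 9.91 and 10.15 in the vehicle arrays. The brightest lay between 10.97 and 11.02 in the menthol arrays and between 12.02 and 12.10 in the vehicle arrays. In none of the 4 did the groups overlap, where 21.7% of all genes tested were lower without overlap. These differences were not tested.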
